A study of Homo sapiens with 11 samples.

Results

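Control immunoglobulin (IgG) was set against size-matched input at the sites where a ZFP36L2 immunoprecipitate was enriched over input, in the acute myeloid leukaemia lines MOLM13 and THP1. The authors deposited 2 comparisons for each immunoprecipitate: a table of peaks over input, and a list of all clusters over IgG. A row of an input table was taken when a cluster with the same start, end and strand stood in the IgG list of the same immunoprecipitate, which held for 66976 of 67083 rows. The matched rows numbered 14403 and 14396 in MOLM13 replicates 1 and 2, and 19306 and 18871 in THP1 replicates 1 and 2, so that 29, 29, 19 and 30 rows were left without a partner.

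The libraries were made by enhanced crosslinking and immunoprecipitation (eCLIP), which recovers short RNA fragments bound to a protein and reads where they map. Per the labels' protocols, MOLM13 or THP1 cells were irradiated at 254 nm with 400 mJ/cm2, RNA was fragmented with RNase I, and a window of 30 to 105 kDa was cut out. The groups used here were control IgG precipitates (2 libraries in MOLM13 and 2 in THP1), inputs (2 libraries in MOLM13 and 1 in THP1, each 2% of the lysate), and precipitates with the rabbit antibody ab70775 against ZFP36L2/TIS11D (2 libraries in each line), and the labels name no drug or other treatment in any group. Replicates are labelled as duplicates with no word on whether the cultures were separate, so p-values here measure a spread that may be technical, and with 1 THP1 input both THP1 comparisons may share their input.

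ZFP36L2 belongs to the TIS11 proteins, zinc finger proteins that recognise AU-rich stretches in 3' UTRs and bring the mRNA to the decay machinery. A control IgG precipitate shows which RNA fragments stay with beads and antibody without the protein, and the input shows how much of each fragment the lysate held. A site can stand above input because the protein binds there, because the fragment sticks without the antibody's target, or both, which is why eCLIP experiments carry both controls.

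The quantity used throughout was the authors' log2 fold of the immunoprecipitate over input minus their log2 fold of the same immunoprecipitate over IgG in the same row. The immunoprecipitate cancels in this difference, which leaves log2 IgG over input plus a constant for each comparison. That constant depends on library sizes, which the sources used here do not give, so each row's difference was set against the median of its own comparison and is called centred IgG over input below (log2 scale). A value of 0 is thus the median enriched site of that comparison and is not known to mark equality of IgG and input. All rows had a log2 fold over input of at least 3, and this fold contains the same input as the difference. Across rows the difference and the fold over input had a Pearson correlation of 0.64 and 0.59 in MOLM13 and of 0.63 and 0.46 in THP1, given as a description since both share the input.

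Before centring, the median difference was 1.57 and 2.09 in the MOLM13 comparisons and 1.24 and 1.00 in the THP1 comparisons. It lay above 0 in 87.4% and 94.6% of MOLM13 rows and in 95% and 91.8% of THP1 rows. The values were not continuous. The most common single value, 0.99 and 1.35 in MOLM13, with 1.24 and 1.00 in THP1, held 22.9% and 23.9% of MOLM13 rows and 32.2% and 39.6% of THP1 rows. Around it, 93.3% and 92.3% of MOLM13 rows and 96.0% and 97.0% of THP1 rows lay within 1e-04 of the log2 ratio of 2 whole numbers of at most 10. The step of 2 to 1 held 15.2% to 17.5% of the rows of each comparison. In both THP1 comparisons the median was the most common value, while in both MOLM13 comparisons it lay above that value. A centred value of 0 therefore does not mark the same step in the lines. A single row is therefore a coarse measurement, and the medians and means below rest on many rows or on agreement among the 4 comparisons.

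**Figure D1:**
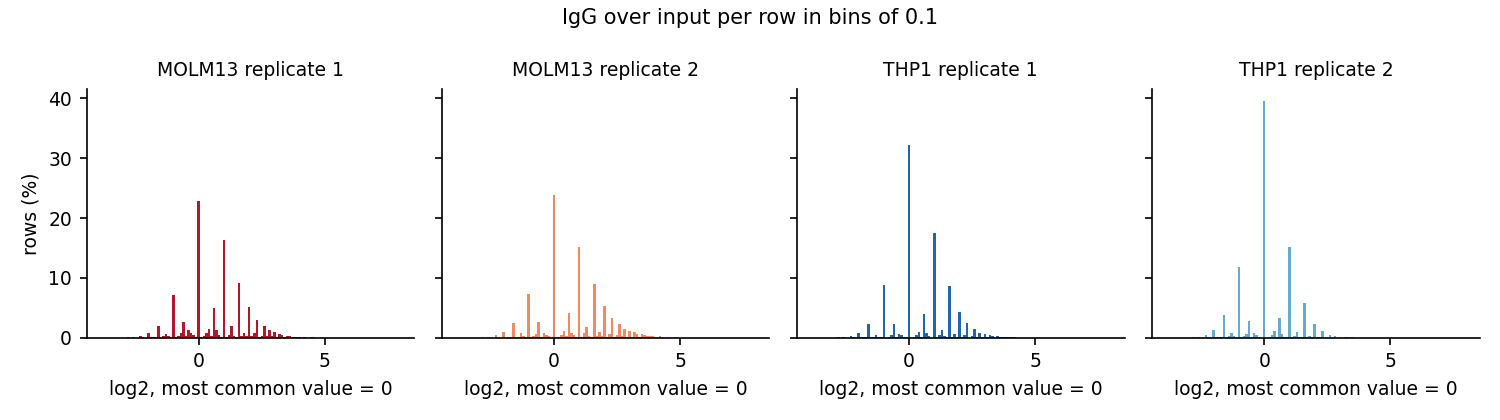
Percentage of matched rows (y axis) by IgG over input on the log2 scale with the most common value of each comparison set to 0 (x axis, bins of 0.1), for MOLM13 replicates 1 and 2 and THP1 replicates 1 and 2. Rows pile up on isolated values, the highest bar holding 22.9% to 39.6% of the rows.

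Fragments at the very start of a transcript with a high IgG signal are shown first. The RefSeq table of transcription starts (GRCh38.p14) gives the first 50 transcribed bases of a gene, and 31 of the 377 rows annotated 5' UTR reached into that window of their own gene. These rows named 17 genes, of which 9 had a centred IgG over input of at least 2 in some comparison. Of the 9, NCKAP1 and ARHGAP5 had rows at the start in all 4 comparisons, and MORF4L1 and DZIP1 in 2. POU3F2, MOSMO, AHDC1, TAB2 and HEXIM1 rested on 1 row in 1 comparison. The stretches below are up to 30 bases that such rows covered in the 7 genes with the highest values, shown because the highest values among rows at gene starts lie on them, with every match to GGCGGCGG or to its reverse complement CCGCCGCC in capitals.
NCKAP1: cgccggagacgCCGCCGCCGCCGCCGCCgc
MORF4L1: aaatccggcccaggatgtagagctggcagt
ARHGAP5: cggagagtggaggaggaGGCGGCGGCGGcg
DZIP1: aagaggccggagggagatcgcggagggg
POU3F2: agcgccgagctagtcagaga
MOSMO: gccgcgccgcggctgctggtcccgggcgcg
AHDC1: agaggcagcGGCGGCGGCGGCGGagacgga
The stretches lie at chr2:183038422-183038451 (minus strand), chr15:78872890-78872919 (plus), chr14:32077320-32077349 (plus), chr13:95644657-95644684 (minus), chr6:98834604-98834623 (plus), chr16:22008127-22008156 (plus) and chr1:27604115-27604144 (minus). The highest centred value of a row at these starts was 6.89 in NCKAP1, 6.36 in MORF4L1, 6.34 in ARHGAP5, 5.49 in DZIP1, 4.25 in POU3F2, 3.22 in MOSMO and 3.17 in AHDC1. Rows outside this window reached as high, up to 7.85 in the coding sequence of VGF, the highest of all rows, and 5.82 in the 5' UTR of SOX5. The motif was chosen after these sequences were seen. It was found on the transcribed strand, in either form, in the window of 3 of the 9 genes with a centred value of at least 2 and of 0 of the 8 genes with lower values, and in 1414 of all 35116 windows of the table (4.03%). The median GC content of the window was 72.0% in the 9 genes, 57.0% in the 8 genes and 60.0% in all windows. These are descriptions of few genes, and no test was made.

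IgG over input differed by the part of the transcript. Rows in 3' UTRs, where the TIS11 proteins are known to bind, had the lowest values of the 4 protein-coding classes (5' UTR, CDS, 3' UTR and distal intron) in all 4 comparisons. Their mean centred IgG over input was -0.75 and -1.01 in MOLM13 (2905 and 3278 rows) and -0.30 and -0.42 in THP1 (3105 and 3148 rows). Rows in distal introns averaged 0.37 and 0.38 in MOLM13 (8621 and 8238 rows) and 0.72 and 0.26 in THP1 (12558 and 12101 rows). The 3' UTR mean minus the distal intron mean was thus -1.12 and -1.39 in MOLM13, with -1.01 and -0.68 in THP1. Its mean over the 4 comparisons, -1.05, was larger than the replicate SD within a line, 0.21, and the sign was negative in 4 of 4 comparisons.

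Part of this order moved with the fold over input. Among rows with a log2 fold over input of 3 to 4, 3' UTR rows averaged -1.14 and -1.38 in MOLM13, with -0.69 and -0.74 in THP1, and distal intron rows -0.39 and -0.39 in MOLM13, with 0.02 and -0.22 in THP1. Among rows with a log2 fold of 6 and above, 3' UTR rows averaged 0.66 and 0.29 in MOLM13, with 0.96 and 0.54 in THP1, and distal intron rows 1.64 and 1.76 in MOLM13, with 1.90 and 1.02 in THP1. The 3' UTR mean was below the distal intron mean in each of the 4 bins of fold over input in each comparison. After a line on the fold over input was taken out, the mean difference between the classes was -0.72.

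CDS rows averaged -0.62 and -0.90 in MOLM13 (528 and 578 rows) and 0.02 and 0.06 in THP1 (586 and 593 rows), so that the 2 MOLM13 values lay below the 2 THP1 values. The same held for the 3' UTR means above and the 5' UTR means below, and the gap between lines moved with the centring. Centred on the most common value, CDS rows averaged -0.04 and -0.16 in MOLM13, with 0.02 and 0.06 in THP1, and 3' UTR rows -0.16 and -0.27 in MOLM13, with -0.30 and -0.42 in THP1, so that the order of the lines turned in 3' UTRs. The 5' UTR means were then 1.05 and 1.27 in MOLM13, with 0.99 and 1.75 in THP1, so that the lines overlapped. The CDS mean minus the distal intron mean was -0.99 and -1.28 in MOLM13, with -0.70 and -0.20 in THP1. After a line on the fold over input was taken out, this difference was -0.51 and -0.84 in MOLM13, with -0.33 and 0.06 in THP1. With 2 comparisons in each line an exact two-sided permutation test cannot give a p below 0.333, and no test was made. Proximal introns, 5' splice sites and introns of noncoding genes lay near the distal introns, with means of -0.03 to 0.67 over the 4 comparisons.

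Rows in 5' UTRs had the highest mean of the 4 protein-coding classes in every comparison, 0.47 and 0.54 in MOLM13 (95 and 89 rows) and 0.99 and 1.75 in THP1 (82 and 111 rows). Their mean minus the distal intron mean was 0.10 and 0.16 in MOLM13, with 0.27 and 1.49 in THP1. The average of these, 0.50, was below the replicate SD of 0.61, and THP1 replicate 2 carried most of it. Under a stricter threshold over input (log2 fold 4, −log10 p 5) the average was 0.20, and the difference was -0.33 in MOLM13 replicate 2 and -0.16 in THP1 replicate 1. What set 5' UTR rows apart was the upper tail: the share with a centred value of at least 2 was 15.8% and 25.8% in MOLM13, with 23.2% and 36.0% in THP1. Of distal intron rows the share was 9.56% and 10.2% in MOLM13, with 15.5% and 5.88% in THP1.

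**Figure D2:**
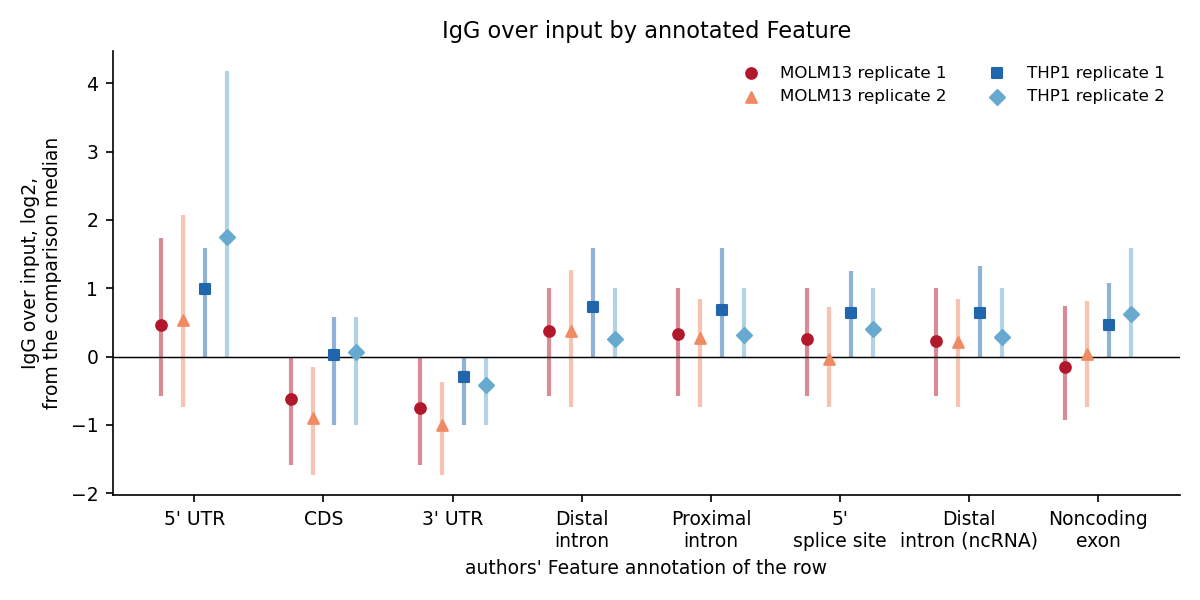
Centred IgG over input (y axis, log2, 0 is the median row of the comparison) by the authors' annotation of the row (x axis); points are means over rows and bars run from the lower to the upper quartile of rows, for MOLM13 replicates 1 and 2 and THP1 replicates 1 and 2. The 3' UTR means lie between -1.01 and -0.30, below the distal intron means of 0.26 to 0.72, and the 5' UTR means reach 1.75.

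The upper tail also showed in the deposited fold over IgG itself. In the authors' deposited tables, IgG was at or above the immunoprecipitate (a log2 fold over IgG of 0 or less) in 34 and 169 MOLM13 rows and in 45 and 123 THP1 rows, which is 0.236% and 1.17% of all matched MOLM13 rows and 0.233% and 0.652% of all matched THP1 rows. The share of such rows among 5' UTR rows was 10.5% and 21.3% in MOLM13, with 12.2% and 33.3% in THP1. Among 3' UTR rows it was 0.0344% and 0.305% in MOLM13, with 0.258% and 0.286% in THP1. CDS rows gave 1.89% and 3.29% in MOLM13, with 2.73% and 5.73% in THP1, and exons of noncoding RNAs gave 1.54% and 7.96% in MOLM13, with 1.65% and 6.02% in THP1. The 371 such rows comprised 108 in distal introns, 79 in CDS, 76 in 5' UTRs, 37 in noncoding exons and 28 in 3' UTRs. The distal intron rows came mostly from MOLM13 replicate 2, with 87 of the 108. This fold contains the same IgG as the centred difference, so the shares restate the upper tail on the authors' own scale.

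**Figure D3:**
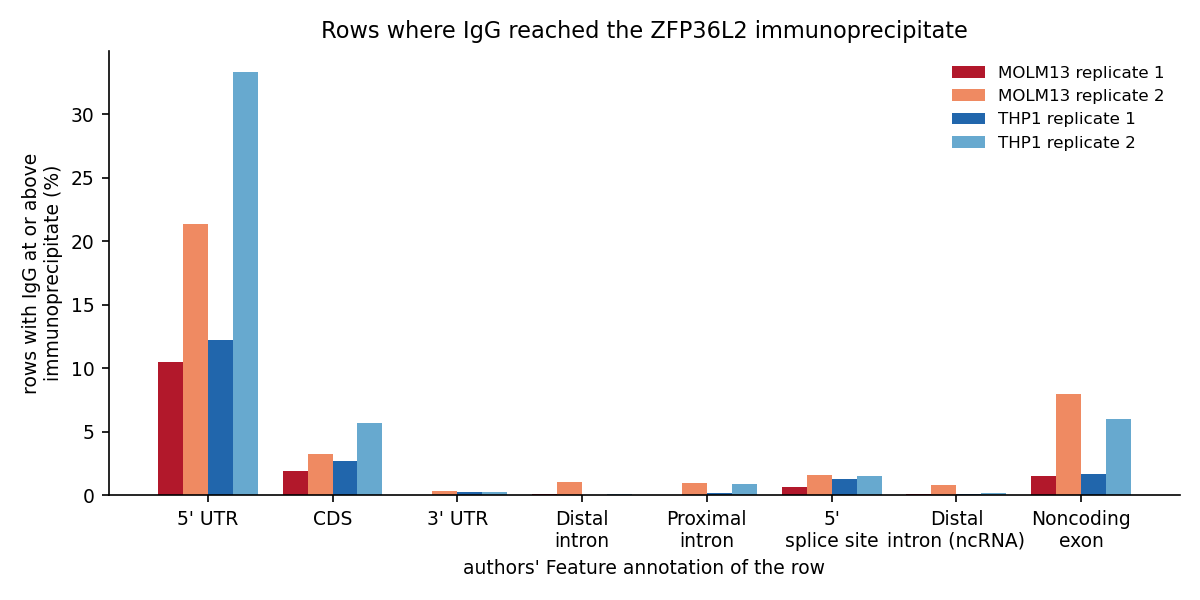
Percentage of matched rows in which IgG was at or above the ZFP36L2 immunoprecipitate in the authors' deposited fold (y axis) by annotated Feature (x axis), for MOLM13 replicates 1 and 2 and THP1 replicates 1 and 2. The 5' UTR bars, at 10.5% to 33.3%, stand above those of every other class drawn.

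By gene, 3661 genes had at least 1 matched row in all 4 comparisons, and the median of a gene's rows was taken in each. With limma, the mean of both lines differed from the comparison median for 42 genes at a Benjamini-Hochberg adjusted p under 0.05. These were 1.15% of the genes tested, with 36 higher (0.983%) and 6 lower (0.164%). The fit has a mean per line, so its SE and p rest on the spread within lines. A gap between the lines does not widen them. Of the 36 higher genes, 34 had the same sign in all 4 comparisons, while in THP1 replicate 2 COPA stood at -0.42 and FES at 0.00. The count of called genes ranged from 0 to 951 under the alternatives. It was 0 without either MOLM13 replicate, 272 without THP1 replicate 1 and 414 without THP1 replicate 2, and the largest adjusted p of VGF, the highest gene, was 0.137. By the commonest annotation of a gene's rows, 16 of the 36 higher genes were distal intron genes, 9 proximal intron, 3 5' UTR, 3 CDS and 3 3' UTR genes. Among all genes tested, 60.2% were distal intron, 5.95% proximal intron, 0.519% 5' UTR, 3.17% CDS and 22.3% 3' UTR genes by the same count. Of the 6 lower genes, 5 were 3' UTR genes and 1 a CDS gene. The split of higher and lower genes moved as well: with the mean in place of the median of a gene's rows, 144 genes were higher and 104 lower, and after a line on the fold over input was taken out, 35 were higher and 157 lower. The centring also moved all genes at once: the median gene stood at 0.14 with the comparison median, at -0.28 when centred on regions shared by all 4 comparisons, at 0.55 when centred on 3' UTR rows and at 0.47 when centred on the most common value.

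The highest gene was VGF, which encodes a secreted neuropeptide precursor of neurons and endocrine cells. Its centred IgG over input was 2.58 and 3.43 in MOLM13, with 6.64 and 6.55 in THP1, from 3, 3, 3 and 5 rows, all in its coding sequence. Of the 14 rows, 13 merged into chr7:101163479-101163766 on the minus strand (hg38). All 4 values were far above 0, and both THP1 values lay above both MOLM13 values, as in 25.9% of all genes tested. The mean was 4.80 ± 0.29 (SE, n = 4 comparisons), with an adjusted p of 0.00423 by limma. In the authors' deposited tables its median log2 fold over input was 4.44 and 4.78 in MOLM13, with 5.05 and 5.41 in THP1, while its median log2 fold over IgG was 0.15 and -0.85 in MOLM13, with -2.32 and -2.14 in THP1.

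NES encodes nestin, an intermediate filament protein of neural precursor cells. Its values were 2.74 and 3.17 in MOLM13, with 5.10 and 5.88 in THP1, from 6, 5, 6 and 10 coding rows. IgG was at or above the immunoprecipitate in 4 of the 6 and 5 of the 5 MOLM13 rows, and in all 6 and all 10 THP1 rows. The mean was 4.22 ± 0.29 (SE, n = 4 comparisons; limma, adjusted p = 0.00423). The rows fell in 3 neighbouring regions shared by all 4 comparisons, the first at chr1:156669761-156670065 and the last at chr1:156670628-156670869 (minus strand, hg38).

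SOX5, ARHGAP5 and NCKAP1 also stood among the highest, rested mostly on 5' UTR rows and had fewer than 3 rows in some comparison. SOX5, a transcription factor of the SRY-box family, had 1 row in each comparison at chr12:23949640-23949759 (minus strand), and centred values of 2.74 and 3.66 in MOLM13, with 5.70 and 5.82 in THP1. ARHGAP5, a GTPase-activating protein, had 2.5 and 4.07 in MOLM13, with 5.21 and 6.09 in THP1. NCKAP1, a subunit of the WAVE complex that drives actin assembly, had 2.58 and 3.30 in MOLM13, with 5.36 and 6.42 in THP1. In all of them both THP1 values were above both MOLM13 values. The same order held in 25.9% of all genes tested with this centring, and in 6.01% centred on the most common value. Their means were 4.48 ± 0.29 for SOX5, 4.47 ± 0.36 for ARHGAP5 and 4.42 ± 0.32 for NCKAP1 (SE, n = 4 comparisons), with limma adjusted p-values of 0.00423, 0.00516 and 0.00423. These genes, as well as CADM4, SH3PXD2A, MT-ND6 and KMT2E below, are named after their values were seen.

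CADM4, a cell adhesion molecule, reached 2.58 and 2.26 in MOLM13, with 4.71 and 5.38 in THP1, from 3' UTR rows. SH3PXD2A, a scaffold protein of podosomes, had 2.87 and 2.72 in MOLM13, with 4.81 and 4.00 in THP1, from 1 row in each comparison, 3 of them in the 3' UTR. MT-ND6, the mitochondrially encoded subunit of respiratory complex I that is transcribed from the light strand, had 1.13 and 1.32 in MOLM13, with 5.0 and 4.87 in THP1. The mitochondrial mRNAs MT-ND1 and MT-ND2 showed no such height, with means of -0.11 and -0.11 over the 4 comparisons. KMT2E, a chromatin protein of the MLL family, had 2.81 and 2.90 in MOLM13, with 4.04 and 2.40 in THP1, with 13 of its 15 rows in distal introns, and here the lines overlapped. The adjusted p by limma was 0.00474 for CADM4, 0.00516 for SH3PXD2A, 0.00663 for MT-ND6 and 0.0298 for KMT2E.

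Among genes with at least 3 rows in each comparison (1201 genes), the other 8 genes named as highest were closer together. NSD2, a histone methyltransferase, had 2.31 and 2.96 in MOLM13, with 2.9 and 1.5 in THP1. UPF2, a factor of nonsense-mediated decay, had 2.16 and 2.88 in MOLM13, with 2.48 and 1.40 in THP1. MCMBP, a binding partner of the MCM replication helicase, had 1.92 and 2.20 in MOLM13, with 1.91 and 2.66 in THP1. These 3 genes, unlike VGF and NES, had overlapping lines and log2 folds over IgG well above 0: for UPF2 the authors' deposited medians were 3.6 and 2.72 in MOLM13, with 3.23 and 5.26 in THP1. ZNF783, PXK, MOSMO, RBL1 (p107, of the retinoblastoma family) and NAP1L1 (a nucleosome assembly protein) had means of 2.13, 2.11, 2.10, 2.07 and 2.03. Their limma adjusted p-values ran from 0.0328 to 0.0462 and their SE from 0.27 to 0.32.

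MOSMO, a regulator of Smoothened in Hedgehog signalling, joined both kinds of row. Its rows in a 5' UTR region, at chr16:22008107-22008361 on the plus strand, averaged 3.55 and 1.80 in MOLM13, with 3.97 and 5.40 in THP1. A distal intron region of the same gene, at chr16:22029593-22029721, averaged 1.42 and 0.26 in MOLM13, with 1.22 and 0.00 in THP1.

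The lower genes were read in exons, EIF3E in its coding sequence (16 of 17 rows) and the other 5 mostly in their 3' UTR. EIF3E, a subunit of the translation initiation factor eIF3, was the only lower gene with at least 3 rows in each comparison. Its centred IgG over input was -2.21 and -2.93 in MOLM13, with -1.74 and -1.33 in THP1, and had a mean of -2.05 ± 0.29 (SE, n = 4 comparisons; limma, adjusted p = 0.0386). The authors' deposited median log2 folds of EIF3E over IgG were 4.32 and 5.08 in MOLM13, with 5.43 and 5.22 in THP1. Those over input were 3.74 and 3.95 in MOLM13, with 5.27 and 4.64 in THP1. The unknown constant of each comparison stands between these folds, so their order does not place IgG below input. ITGA4 (integrin alpha 4), DYNLL1 (a dynein light chain), JUND (an AP-1 factor), ACTG1 (gamma actin) and MXI1 (a MYC antagonist) had means of -2.36, -2.15, -2.01, -1.83 and -1.83. ITGA4, DYNLL1, ACTG1 and MXI1 are named because they complete the 6 lower genes.

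**Figure D4:**
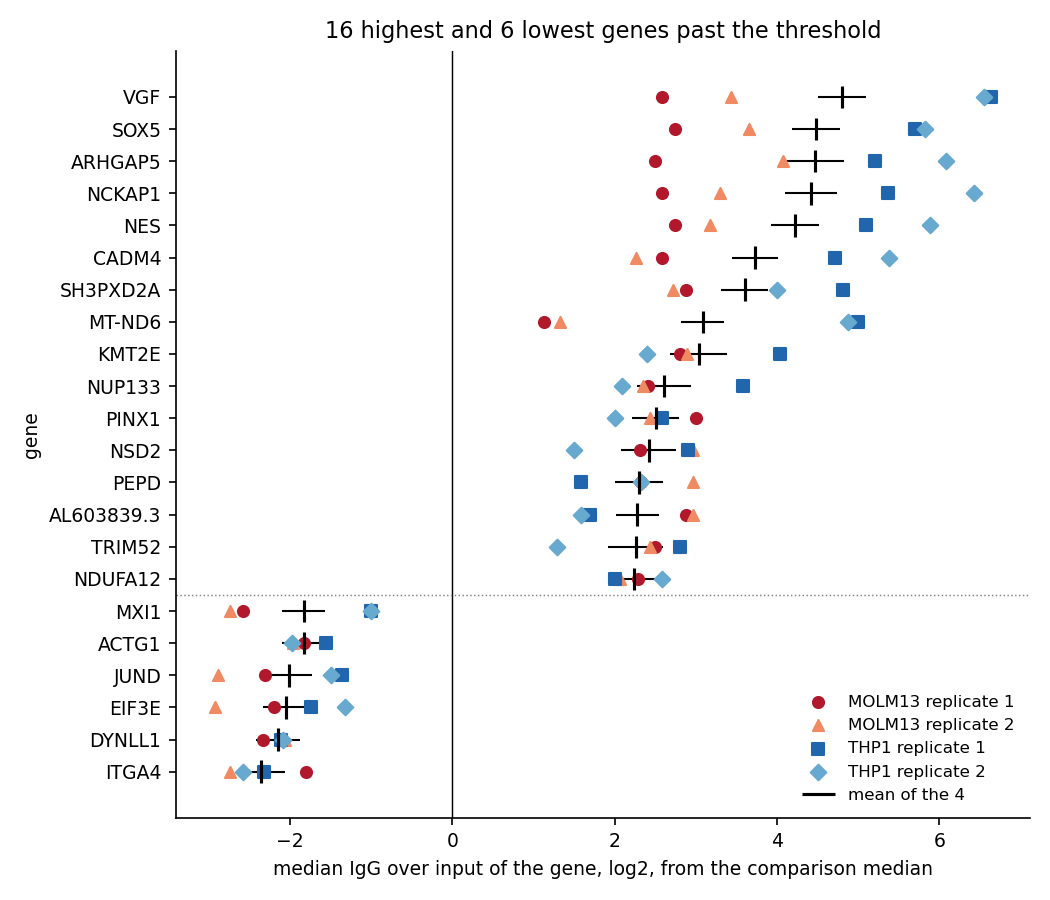
Median centred IgG over input of each gene (x axis, log2, 0 is the median row of the comparison) for the 16 highest and all 6 lower genes past an adjusted p of 0.05 in the limma fit; symbols are MOLM13 replicates 1 and 2 and THP1 replicates 1 and 2, and the black mark and bar are the mean and its SE. VGF to MT-ND6 lie higher in both THP1 comparisons than in both MOLM13 comparisons, and the 6 lower genes lie below 0 in all 4. Of all genes tested, 25.9% have both THP1 values above both MOLM13 values.

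IgG reached the immunoprecipitate repeatedly at a small set of genes. Of the 173 genes with such a row in any comparison, NEAT1, NES, MOSMO, VGF, ARHGAP5 and SOX5 had one in all 4, and 12 more had one in 3. In 9 of these 18 genes 5' UTR was the commonest annotation of such rows, among them NCKAP1, GRK5, PTPN12, PUM2, DZIP1 and EHBP1. Of the 18 genes, 14 had rows in all 4 comparisons, and both MOLM13 values were above both THP1 values in 1 of the 14, with the reverse in 10. Among all 3661 genes, both MOLM13 values were above in 11.6% and both THP1 values in 25.9%. Over all genes the centring set this order: centred on the most common value, both MOLM13 values were above in 26.2% and both THP1 values in 6.01%, while the 14 genes then gave 2 and 9. The 18 genes were picked by their IgG signal, so these counts describe them and test nothing.

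NEAT1, the long noncoding RNA on which paraspeckles are built, gave the most rows of this kind, 31 of 371. Its 206 matched rows were spread unevenly over the replicates, 7 and 77 in MOLM13, with 19 and 103 in THP1. Its median centred IgG over input was 0.66 and 0.55 in MOLM13, with 1.56 and 1.49 in THP1. The mean of 1.06 ± 0.27 (SE, n = 4 comparisons) had an adjusted p of 0.0829 by limma, so NEAT1 as a whole did not pass. Rows of NEAT1 reached from -1.07 to 2.46 in MOLM13 replicate 1 and from -0.41 to 4.44 in THP1 replicate 2.

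Because several of the highest genes are known from neural tissue, 34 neural genes were looked up, a list written after those values were seen. Rows were found for 9 of the 34, and 6 had rows in all 4 comparisons. Of the 6, NES, VGF and SOX5 were called higher, as were 0.983% of all genes tested. They were also what prompted the list, so neither their count nor a median of the list can describe neural genes. ENO2, MEIS2 and NCAM1, with means of 0.76, 0.24 and 0.21, were not called, and MEIS2 had 0.21 and 0.76 in MOLM13, with 0.00 and 0.00 in THP1. POU3F2 and SOX11, transcription factors of neural precursors, had 1 row each, both in THP1 replicate 2, with centred values of 4.25 and 4.64 and with log2 folds over IgG of -1.35 and -1.27 in the authors' deposited table. MAP2 had 1 intron row in each THP1 comparison, both at 0.00, and the neuronal and glial markers TUBB3, STMN2, DCX, GFAP and SNAP25 had no row.

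The contrast of 3' UTR with intron held inside genes. In 383 genes with rows of both kinds in all 4 comparisons, the median of the 3' UTR rows minus that of the intron rows was taken. This removes a level that both parts of the gene share, but not a difference in their input. The median of this difference over genes was -1.42 and -1.5 in MOLM13, with -1.08 and -0.79 in THP1. It was negative in 310 and 318 of the 383 genes in MOLM13 and in 303 and 260 in THP1, and negative in all 4 comparisons in 171 genes against positive in all 4 in 4 genes. By limma, 168 genes differed at an adjusted p under 0.05 (43.9% of those tested), with 165 lower in the 3' UTR (43.1%) and 3 higher (0.783%). After a line on the fold over input was taken out, limma called 124 lower and 3 higher. The median over genes of the mean difference was then -0.86, against -1.18 before. Leaving out any 1 comparison left 0 genes called, with 110 to 140 at an unadjusted p under 0.05, while the median over genes stayed between -1.26 and -1.14.

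**Figure D5:**
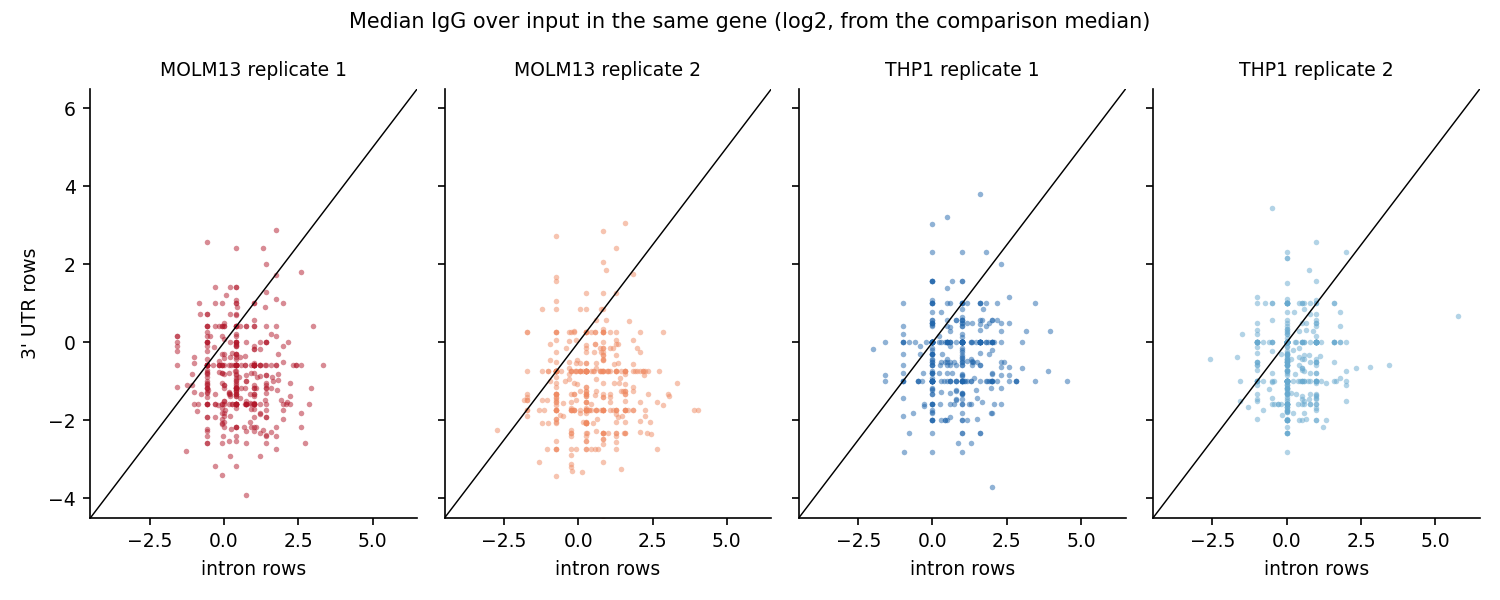
Median centred IgG over input of a gene's 3' UTR rows (y axis, log2) against that of its intron rows (x axis, log2) for 383 genes, in MOLM13 replicates 1 and 2 and THP1 replicates 1 and 2; the line marks equality. Most points lie below the line, 310, 318, 303 and 260 of them in the 4 panels.

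ZNF592, a zinc finger gene, had the largest contrast. Its 3' UTR rows stood at -1.81 and -1.74 in MOLM13, with -1.0 and -0.63 in THP1, and its intron rows at 2.58 and 3.91 in MOLM13, with 4.52 and 2.81 in THP1. The difference averaged -4.75 ± 0.57 (SE, n = 4 comparisons; limma, adjusted p = 1.57e-13). The size of this p, and of those below, rests on a spread that limma set to a common value for every gene. It does not rest on the gene's own 4 values alone. The intron rows of ZNF592 overlapped at chr15:84781050-84781127, and the 3' UTR region with rows in all 4 comparisons was chr15:84802548-84802696 (both on the plus strand).

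IRF1, an interferon-induced transcription factor, had 3' UTR values of -0.58 and -1.53 in MOLM13, with -0.74 and 0.68 in THP1. Its intron values were 2.42 and 2.65 in MOLM13, with 3.88 and 5.75 in THP1, from the region chr5:132485839-132486130 on the minus strand. The 3' UTR region of IRF1 was chr5:132483196-132483323. Both parts of the transcript thus passed the threshold over input, with IgG over input differing by -4.22 ± 0.57 on the log2 scale (SE, n = 4 comparisons; limma, adjusted p = 7.38e-11).

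PPP1R12A (a myosin phosphatase subunit), CCT2 (a chaperonin subunit) and ACSL4 (an acyl-CoA synthetase) followed with differences of -3.52, -3.43 and -3.37. ACSL4 had the narrowest range of the 3, from -3.91 to -2.70 over the 4 comparisons. All have the same SE of 0.57, since limma shrank the spread of every gene to a common value in this fit.

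The 3 genes called higher in the 3' UTR were NSD2, HOOK3 (a dynein adaptor) and MTCL2 (a microtubule crosslinking factor). NSD2 had 3' UTR values of 2.87 and 3.07 in MOLM13, with 3.81 and 3.46 in THP1, and intron values of 1.74 and 1.58 in MOLM13, with 1.58 and -0.50 in THP1. Its difference averaged 2.20 ± 0.57 (SE, n = 4 comparisons; limma, adjusted p = 0.000947). HOOK3 averaged 1.76, positive in all 4 comparisons. MTCL2 averaged 1.34 but was -1.58 in MOLM13 replicate 1, and its sign turned to -0.23 when touching rows were merged. ADCY9 and MAFG, positive in all 4 comparisons at means of 1.00 and 0.77, were not called.

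The lines were compared by region and by gene. Over 6787 regions with rows in all 4 comparisons, 0 differed between MOLM13 and THP1 at an adjusted p under 0.05 by limma, with 382 at an unadjusted p under 0.05 and a smallest adjusted p of 0.837. Over 3661 genes, 0 differed, with 264 at an unadjusted p under 0.05 and a smallest adjusted p of 0.599. Without THP1 replicate 1, 2 genes were called, and without THP1 replicate 2, 10 were. The 2 values of one line lay apart from the 2 of the other in 34.2% of regions and 37.4% of genes. In data simulated with this design, 0% of genes or regions given a true line difference of 3 on the log2 scale were called, so that a count of 0 says little. The comparisons were about as alike within a line as between lines. Over regions the Pearson correlation was 0.50 between the MOLM13 replicates and 0.39 between the THP1 replicates, and 0.36 to 0.48 for the 4 pairs across lines. These correlations describe regions that share libraries and the threshold over input.

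The largest gene differences between lines, none of them called, ran in both directions. COPA, a coat protein of Golgi vesicles, had 4.03 and 4.02 in MOLM13 against 1.29 and -0.42 in THP1, a difference of 3.59 ± 0.71 (SE, n = 2 comparisons per line). SAMHD1, a dNTP hydrolase of myeloid cells, had 3.1 and 4.35 in MOLM13 against 0.00 and 0.50 in THP1, from 2 and 2 against 11 and 8 rows. CRIM1, FES (a tyrosine kinase of myeloid cells) and NAA35 (a subunit of an N-terminal acetyltransferase) differed by 3.25, 3.01 and 2.70. A gene's rows can lie at different sites in the lines: CRIM1 had 1 and 1 rows in MOLM13, in the 3' UTR, against 4 and 3 rows in THP1, in distal introns, so its difference sets different sites against each other. In the other direction MT-ND6 and VGF differed by -3.71 and -3.58. CSRNP2, CUL4A (a ubiquitin ligase scaffold) and PDGFA (a growth factor) differed by -3.50, -3.18 and -3.16. PDGFA rested on 1 row in each comparison, with -2.58 and -2.74 in MOLM13 against 1.00 and 0.00 in THP1.

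Among regions, the largest differences toward MOLM13 were in introns of ARID2, RPS3, ZNF438, ASH1L, NAA35, TCFL5 and ZMPSTE24 and in the 3' UTR of STC2, at 2.62 to 3.05. The STC2 region, at chr5:173315417-173315540 on the minus strand, had -0.17 and -0.74 in MOLM13 against -3.17 and -3.17 in THP1. The largest differences toward THP1 were in MT-ND6, FNDC3B, LRRC8B, ATP5F1B, CSRNP2, VGF and DNMT1, at -3.68 to -3.19. The FNDC3B region, in the 3' UTR at chr3:172400584-172400691 on the plus strand, had -2.17 and -1.74 in MOLM13 against 1.00 and 2.32 in THP1. All of these regions had an adjusted p of 0.837 by limma. For the 3' UTR minus intron contrast within genes, limma called 0 of 383 genes between lines, with 21 at an unadjusted p under 0.05, while the lines did not overlap in 37.9% of them. Its median difference between lines over genes was -0.50.

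The mRNA of ZFP36L2 itself had enriched rows in every comparison. The centred values of ZFP36L2 were -0.95 and -0.06 in MOLM13, with -0.86 and -1.25 in THP1, from 8, 11, 11 and 13 rows, all in the 3' UTR. The mean of -0.78 ± 0.30 (SE, n = 4 comparisons) had a limma adjusted p of 0.164. ZFP36, the founding member of the family (tristetraprolin), had 0.03 and -1.74 in MOLM13, with -0.25 and 0.73 in THP1, which straddled 0. ZFP36L1 had 3' UTR rows in 3 comparisons, with medians of -0.58 in MOLM13 replicate 1 and -1.5 and -1.0 in THP1.

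Of 18 gene lists, 17 had a gene tested, and 12 had a median below and 5 above that of all genes, 0.14. Over all genes tested, 41.1% lay below 0 and 58.9% above. By the commonest annotation of a gene's rows, the 815 3' UTR genes had a median of -0.58 and the 2204 distal intron genes 0.32. The lists were not matched for annotation, so their medians also carry the parts of the transcript in which their genes were read. KLF2, FOS, JUND, JUNB, CEBPB and IRF8 below were read mostly in 3' UTRs. Among the 12 lists with at least 6 genes tested, the 4 lowest medians are given first. Immediate early genes had a median of -0.68 over 7 genes tested, all 7 below 0, with JUND called lower and JUNB at -1.22, FOS at -0.46 and KLF2 at -0.17. Myeloid transcription factors had a median of -0.56 over 10 genes, 9 of them below 0, with CEBPB at -1.74, IRF8 at -1.54 and RUNX1 at -0.12, and IRF1 apart at 2.22. Cell cycle and apoptosis regulators had -0.37 over 20 genes, from BCL2L11, which encodes the BH3-only protein BIM, at -1.62 and CCND3 at -1.56 to E2F2 at 0.54 and BID at 0.67. Reported ZFP36 family targets had -0.17 over 16 genes, 10 below 0, with CDKN1A at -1.12 and NOTCH1 at -0.73 at one end and IL1B at 1.19 and CXCL8 at 1.72 at the other. JUND was the only one called of the 46 genes tested in these 4 lists (2.17%, against 1.15% of all genes).

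CXCL8, the neutrophil chemokine interleukin 8, is an example of a reported target with a high IgG signal in MOLM13. It had 2.42 and 3.35 in MOLM13 from 1 row each, and 0.58 and 0.53 in THP1 from 3 and 5 rows. Its median log2 fold over IgG in the authors' deposited tables was 0.91 and -0.29 in MOLM13, with 6.58 and 5.82 in THP1. The THP1 rows of CXCL8 thus stood far above IgG. The list of NF-kB pathway genes and cytokines, with a median of 0.67 over 7 genes, also held TNFAIP3 at -1.34 and NFKBIA at -0.98, both negative feedback inhibitors of NF-kB.

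The medians of 5 further lists ran from -0.02 to 0.35. Leukaemia chromatin regulators had a median of 0.25 over 24 genes, 19 of them above 0, with NSD2 called and CREBBP at 1.15, and with HOXA9 at -1.22 and KDM1A at -0.90 from exon rows. Splicing factors and helicases had 0.35 over 9 genes, from CLK1 at -1.43 and SRSF11 at -1.07 to RBM25 at 0.93 and LUC7L at 2.08. Factors of mRNA decay and deadenylation had 0.01 over 25 genes, with UPF2 called, TNRC6C at 1.24, DCP2 at -0.83 and CNOT7 at -1.44. Other regulators of AU-rich mRNAs had 0.01 over 17 genes, with RC3H1 (roquin) at 1.12 from introns, and RC3H2 at -1.06 and HNRNPC at -0.93 from 3' UTRs. Signalling feedback genes had -0.02 over 16 genes, with CISH at 2.08, SOCS5 at 1.33, SMAD7 at -0.83 and SPRED2 at -0.74.

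Nuclear and structural noncoding RNAs had a median of 0.32 over 9 genes, with OIP5-AS1 at 1.70 and NEAT1 at 1.06 against SNHG1 at -1.85 and SNHG8 at -1.31. Ribosomal proteins and translation factors had -0.14 over 6 genes, with PABPC1 at 1.67 and EEF1G at 0.84 from introns, and EIF4A2 at -0.82 and EIF3A at -0.63. Of 15 mitochondrially encoded mRNAs 3 were tested, with MT-ND6 called and the median at -0.11. Of 25 histone genes 1 was tested, H2AZ2 at 0.00. The 2 TIS11 genes tested had a median of -0.54. Markers of cell types gave few rows: 1 of 26 monocyte and granulocyte markers was tested (FLT3, 0.33), 1 of 20 lymphoid markers (CD4, -0.05), and 0 of 21 erythroid and megakaryocytic markers. Of the 8 monocyte and granulocyte markers with any row, 3 and 3 had one in MOLM13, with 8 and 7 in THP1. THP1 also had more matched rows in all, 19306 and 18871 against 14403 and 14396 in MOLM13. The lists were read here by counts and medians only.

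Small RNAs gave 12 rows in 4 miRNA hairpins, 3 of which matched the RefSeq table. The 5 mature forms that a row touched are shown with the seed, bases 2 to 8, in capitals, because they are the fixed short RNAs against which these rows can be placed.
hsa-miR-27a-3p: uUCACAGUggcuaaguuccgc
hsa-miR-222-3p: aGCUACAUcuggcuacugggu
hsa-miR-222-5p: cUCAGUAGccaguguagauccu
hsa-miR-16-5p: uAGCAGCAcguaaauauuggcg
hsa-miR-16-2-3p: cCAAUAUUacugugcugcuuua
No seed was shared among them. Of the 11 rows in these hairpins 4 ran over both arms, so that their values cannot be given to one arm. The row on miR-27a-3p, at chr19:13836447-13836468 on the minus strand, covered all 21 bases in MOLM13 replicate 1, where its centred IgG over input was 2.00, and a row 1 base shorter in THP1 replicate 2 had 3.0. In the authors' deposited tables its log2 fold over IgG was 0.44 in MOLM13 replicate 1 and -0.23 in THP1 replicate 2, the lowest of the miRNA rows. Rows on the miR-222 hairpin (chromosome X, minus strand) had centred values of 0.64 to 1.22 in MOLM13 replicate 1, of 0.00 to 0.32 in THP1 replicate 1 and of 2.12 in THP1 replicate 2. Rows on miR-16-5p and its partner arm of the hairpin on chromosome 3 had 1.00 in THP1 replicate 1, and a row on miR-16-5p had 0.00 in THP1 replicate 2.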

How the data were processed

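Clusters were called by the authors in each immunoprecipitate by itself. The deposited input tables and IgG lists give a log2 fold and a −log10 p per cluster, per the file headers and values; input tables hold only rows with a log2 fold and a −log10 p of at least 3. Tools listed by the submitters' processing notes, without their roles, are STAR 2.5.0c, cutadapt 1.14, edgeR and Picard 2.6.0, beside hg19, GRCh37 and hg38; the files carry hg38 contigs. Peak caller, fold scaling and depth: not given in the sources used here. Precision therefore comes from agreement among comparisons.

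Rows were joined by coordinates and strand, and the 2 folds subtracted and centred on each comparison's median. Of 6549 gene names, 6072 matched RefSeq symbols and 187 older ones; 290 were kept, and 1433 rows with several genes or none left out of gene fits. Regions merged rows sharing at least 1 base. Fits used limma 3.58.1 (R 4.3.3) with a mean per line, Benjamini-Hochberg adjusted over all features, and were tested on simulated data. Named genes were the 10 highest and 10 lowest called with 3 rows in each comparison, 8 regions and 5 genes per direction between lines, 5 within genes, 2 highest and 2 lowest per list, and ZFP36L2, ZFP36 and ZFP36L1. Some items that this rule named are not reported here. Members, tests and 18 lists were chosen with earlier results of these data known. Replicate numbers did not pair samples by the labels; same-numbered deviations correlated at -0.02.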

Additional observations from a re-analysis of the deposited data

Results flagged for a closer look

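Among the named genes and regions, 7 genes and 9 regions had both MOLM13 values on one side of the comparison median and both THP1 values on the other. None of the differences was called by limma. The share of all genes or regions with this pattern was not counted, so the counts describe the named items only. The sides depend on the centring. Set against the most common value of each comparison, FLT3 and E2F2 lay at or above it in both lines. The MOLM13 values of MT-ND1 and of the DNMT1 region then lay on both sides of it. E2F2 also had a 3' UTR row in each MOLM13 comparison but only an intron row in THP1. The differences are MOLM13 minus THP1, on the log2 scale. By gene they were 2.70 for NAA35, 2.34 for ZNF438, -3.50 for CSRNP2, -3.18 for CUL4A, -2.10 for E2F2, -1.17 for FLT3 and -1.14 for MT-ND1. By region, the values higher in MOLM13 were 2.79 for RPS3, 2.78 for ZNF438, 2.70 for NAA35, 2.62 for TCFL5 and 2.62 for ZMPSTE24. The values lower in MOLM13 were -3.61 for FNDC3B, -3.32 for LRRC8B, -3.27 for ATP5F1B and -3.19 for DNMT1. NAA35 rested on the same rows in both counts. The regions, NAA35, CSRNP2 and CUL4A were picked by size from the 34.2% of regions and 37.4% of genes whose lines did not overlap. Lying on opposite sides of the median is a narrower condition than that. E2F2, FLT3 and MT-ND1 were named from the gene lists, and ZNF438 as the gene of a picked region.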

How the results depend on the processing

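The mean of 3' UTR minus distal intron rows kept its sign under the 3 alternatives that could change it (another centring cannot). It moved by more than the replicate SD under 1, to -0.72 against -1.05, once a line on the fold over input was taken out. The mean of CDS minus distal intron rows moved likewise, to -0.41 against -0.79. In THP1 replicate 2 that CDS difference turned in sign, to 0.06 against -0.20. The counts of called genes were less stable than the values. For genes against the comparison median, 42 were called; 0 were called when centring on shared regions, with a stricter threshold over input, with touching rows merged or when centred on the most common value, 951 when centred on 3' UTR rows, 248 with means over rows, 20 of 1201 with 3 rows in each comparison, 192 with the fold over input taken out, and 0 to 414 when 1 comparison was left out. Where 0 were called, 560 to 1247 genes had an unadjusted p under 0.05, and in those fits up to 19.6% of genes had no spread within lines. VGF kept a value of 4.38 to 5.21 and EIF3E of -2.47 to -1.64 over the 13 alternatives, each past the threshold in 7. Within genes, 168 were called; 61 of 106 were with a stricter threshold, 38 of 91 with 2 rows of each kind, and 0 to 0 with 1 comparison left out; the sign of MTCL2 turned, to -0.23 with touching rows merged and -0.15 with the fold over input taken out. Between lines, 0 genes were called; 5 were without centring, 4 with the fold over input taken out, 0 to 10 with 1 comparison left out, and 13 with the replicate block, which the labels do not support as a pairing. The block changed no other line call, with 0 regions and 0 within-gene contrasts. For regions 5 were called with the fold over input taken out, and for the within-gene contrast between lines 1 with touching rows merged. The alternatives on the most common value, no centring and the fold over input were chosen after seeing the data. Depth is unknown, and single rows fall on coarse steps.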
